A study of Drosophila melanogaster with 15 samples.

Results

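The genes described here encode the machinery that moves membrane and secreted cargo between the compartments of a cell: Rab GTPases, Sec and exocyst proteins and Vps proteins, followed through the first hours of Drosophila melanogaster embryogenesis. A gene belonged to the set if a probe set carried its current symbol alone and that symbol began with Rab, Sec, Exo, Syx or Vps followed by a digit. A gene with several probe sets was represented by its brightest, judged by the mean of the 15 arrays. The rule found 64 genes with 68 probe sets among the 10844 genes with a probe set of their own. Of 89 genes in the RefSeq gene table whose symbols meet the rule, 19 of 31 Rab genes, 17 of 19 Sec genes, both Exo genes and 26 of 27 Vps genes were measured in this way. None of the 10 syntaxin genes was among them, so the only SNAREs in the set were Sec20 and Sec22. The other 25 genes, which include Rab1, Rab4, Rab5, Rab6, Rab7, Rab8, Rab11, Sec6 and Sec23, were not analysed here.

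Membrane traffic runs outward from the endoplasmic reticulum through the Golgi to the cell surface and inward through endosomes to the lysosome. Rab GTPases mark each compartment and recruit effectors; coats such as COPII bud vesicles; tethers such as the exocyst and HOPS hold a vesicle at its target; SNAREs fuse it. In the fly embryo this traffic is needed on a large scale at cellularisation, when the syncytial blastoderm is divided into cells by growth of new plasma membrane. Early embryos begin with RNA loaded by the mother, which is cleared as the zygotic genome becomes active.

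Whole embryos were profiled on Affymetrix oligonucleotide arrays at 5 stages with 3 arrays each. T0 embryos had not reached nuclear cycle 9, T1 embryos were in the slow phase of cellularisation and T2 embryos in its fast phase. For T3 and T4 the sources differ: germ band elongation beginning (T3) and ending (T4) in the sample labels, gastrulation beginning and ending in the series text. The genotype is given as yellow white and Oregon R for every stage, of the parents at T0 and T1 and of the embryos at T2, T3 and T4, and no group carried a mutation or treatment that another lacked. Embryos were picked by hand under the microscope and pooled. Whether replicate arrays stem from separate egg collections is not stated, and the p-values therefore cover only the variation among these arrays, which may be technical. Arrays are called below by stage and the replicate number of the labels.

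A signal is the authors' MAS5 value for a probe set on a linear scale, given in array units. Every array has the same 2% trimmed mean, so each value is relative to the average of its own array and not to the embryo. In bulk embryos, fewer cells of a type and less RNA per cell cannot be told apart. Signals at or below 21.96, the 95th percentile of the 23 negative-control probe sets, count as not above background, and 39.0% to 49.7% of an array's signals were at or below that level. The number of arrays, 3 per stage, limits the precision. Arrays of 1 stage correlated at r between 0.925 and 0.964 and arrays of different stages at 0.749 to 0.949, across all probe sets. The labels of T0 and T1 were checked on markers. Summed signals of 4 maternal transcripts (bcd, osk, exu and png), of 5 listed, lay at 137.5 to 218 at T1 against 4998 to 6716 at T0. Those of 5 zygotic cellularisation genes lay at 24375 to 26463 at T1 against 506 to 619 at T0. The zygotic sums were 4431 to 4942 at T2, 1100 to 1199 at T3 and 716 to 862 at T4. No marker set was chosen for T2, T3 or T4. Eggshell and yolk genes, 6 of 6 measured, summed to 168 to 298 on every array. The means of Cp38 and Yp1 were at or below background at every stage, and that of Yp3 at every stage but T2. Those of Cp18, Cp36 and Yp2 were above background at every stage. Genes of late differentiation, 4 of 6 measured, summed to 20.2 to 138. The mean of Mlc2 was above background at every stage and that of elav from T2 on. Those of Tm2 and Cpr49Ae were at or below background throughout. The part of other cell or embryo material in the results was not tested.

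Differences were tested with limma on log2(signal + 7.3), a scale that understates the change of dim genes. A gene was called higher or lower at a later stage if its p-value, adjusted by Benjamini-Hochberg over all 13966 probe sets, fell under 0.05 with a log2 fold change of 1 or more in either direction. On entry into cellularisation, T1 against T0, 24 of the 64 genes fell and 5 rose. Falls were thus called for 37.5% of the set, where 16.5% of all 10844 genes were called lower, and rises for 7.8% where 8.16% of all genes were called higher. The shares of all genes, here and below, include genes at background, where a fall is hard to detect. Of the set, 36 genes were above background on every array and 1 on none. The set was not compared with genes above background alone. The median log2 fold change was -0.57 for the set and 0.08 for all genes. In the step to the fast phase, T2 against T1, 7 genes rose and 7 fell, each 10.9% of the set; the shares of all genes were 5.8% and 4.69%. The medians were -0.08 for the set and 0.14 for all genes. Only 3 genes rose at T1 without T0 array 4, and only 4 fell at T2 without T1 array 3 or without T2 array 4.

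After T2 few calls were made. Between T3 and T2 limma called none of the 64 genes, where 0.655% of all genes were called higher and 0.848% lower; at an unadjusted p under 0.05, 7 had higher and 5 lower signals. Between T4 and T3 only Rab18 was called, as higher, where 0.544% of all genes were called higher and 0.673% lower; 7 had higher and 6 lower signals at an unadjusted p under 0.05. Across the whole period, T4 against T0, 12 genes (18.8%) were lower and 1 was higher, where 13.3% of all genes were called lower and 11.8% higher. A moderated F test over the 4 successive steps found a change at some stage in 47 of the 64 genes (73.4%), against 46.6% of all genes. By role group, as described below, 1 of 3 Rab3 regulators, 2 of 5 COPII genes and 5 of 9 ESCRT genes changed. So did 3 of 6 HOPS, CORVET and Sec1/Munc18 genes, and 3 of 4 GARP and EARP genes. Of the Rab groups, 2 of 3 endosomal and 8 of 10 remaining genes changed, as did 3 of 4 genes of the Sec61 channel. Every gene of the other groups changed. The stage with the highest mean was T0 for 29 genes, T1 for 14, T2 for 5, T3 for 6 and T4 for 10. Of the 64 genes, 36 were above background on every array, 1 on none and 27 on some. In all 42 were called in at least 1 of the 5 comparisons and 22 in none. Shares of all genes were not computed for this count, nor for those by unadjusted p, stage of highest mean or background. These counts therefore do not set the 64 genes apart from other genes. T1 enters both T1 against T0 and T2 against T1, and T0 enters both T1 against T0 and T4 against T0, so values of 1 gene in these pairs share arrays. In all 57 calls on these genes the arrays of both stages did not overlap. With 3 arrays per stage the call itself makes this likely, so it adds no support.

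Centring moves every log2 fold change of a comparison by the same amount. Quantile normalization moves genes by different amounts. At T1 against T0 it took Sec24AB from -1.07 to -0.59 and Vps13 from -1.07 to -0.71. It ended 12 of the 57 calls on the set. Centring on 37 ribosomal protein probe sets moved T1 against T0 by -0.73 and T4 against T0 by -0.68, and centring on the array median moved them by 0.17 and -0.22. T2 against T1 moved by -0.12 with ribosomal and -0.25 with array-median centring, T3 against T2 by 0.12 and -0.01, and T4 against T3 by 0.04 and -0.14. With ribosomal centring 37 genes were called lower and none higher at T1, and the log2 fold change of Rab2, for example, was then 0.30. The median log2 fold change at T1 was then -1.30 for the set and -0.65 for all genes. Shares of all genes called were not computed under ribosomal centring. The 5 rises at T1 were thus called on the scale of the array average and not on the ribosomal one. Where a call on 1 of the 64 genes failed under another setting, the setting is named beside it: these include a pseudocount, the constant added to the signal, of 1 or of 29.4 (the median signal) in place of 7.3, the replicate number as a further term, and each array left out in turn.

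**Figure D1:**
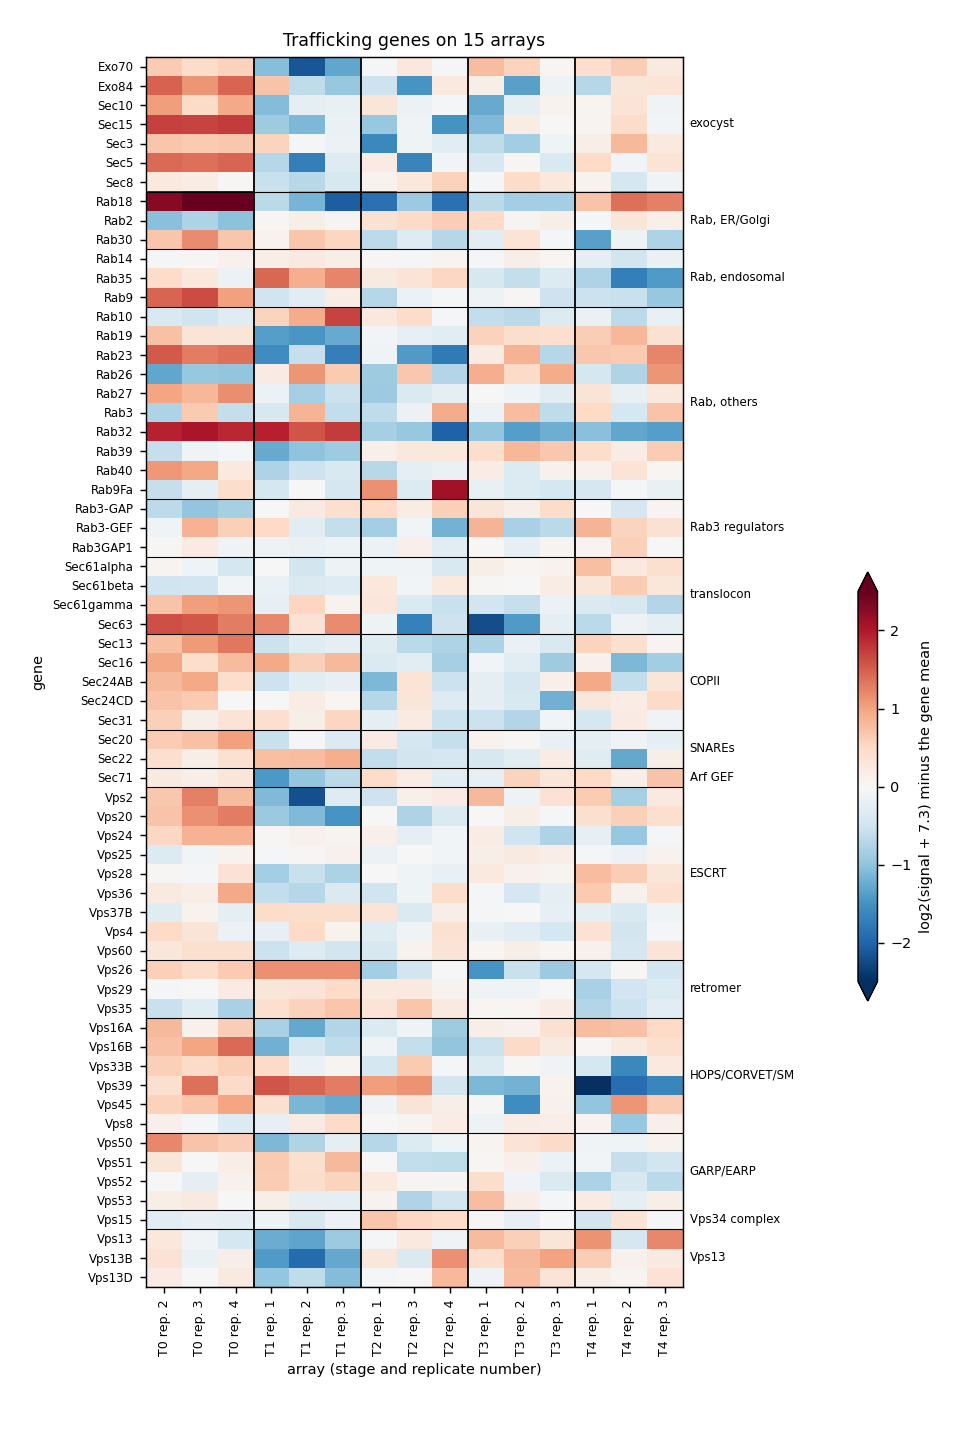
Signals of the 64 genes on the 15 arrays, as log2(signal + 7.3) minus each gene's mean over all arrays. Columns are arrays ordered by stage (T0, at the left, to T4), rows are genes grouped by role, and red marks signals above and blue below the gene's own mean; most exocyst and several Rab and ESCRT genes are red at T0, and the 3 Vps13 genes are blue at T1.

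The exocyst tethers secretory vesicles to the plasma membrane before fusion, and 7 of its 8 subunits were measured. At T1 against T0, 5 of the 7 fell (Sec5, Sec10, Sec15, Exo70 and Exo84), with a median log2 fold change of -1.63 over all 7, and the F test found a change in every one. Among all genes, 16.5% were called lower at T1 and 46.6% changed by the F test. Sec15, the subunit that binds Rab11, had signals at T0 of 78.6, 77.8 and 81.2, at T1 of 7.0, 4.9 and 16.3, at T2 of 6.4, 17.6 and 2.1, at T3 of 5.0, 22.8 and 19.2, and at T4 of 20.3, 29.1 and 18.0. Its log2 fold change at T1 was -2.43 ± 0.39 (SE) with an adjusted p in limma of 0.00021; since the T1 arrays were at background, it was at least 3.61-fold lower. Sec5 had signals at T0 of 138, 133 and 140.5, at T1 of 25.9, 9.2 and 35.9, at T2 of 54.9, 10.0 and 44.6, at T3 of 34.0, 47.8 and 34.2, and at T4 of 69.5, 44.5 and 61.2, with a log2 fold change of -2.33 ± 0.43 (SE) at T1 against T0 and an adjusted p in limma of 0.00067. For both, the 3 T0 arrays lay above every array of the 4 later stages. Sec15 was also lower at T4 than at T0, with a log2 fold change of -1.56 (adjusted p in limma 0.0062). The call for Sec15 at T4 against T0 did not hold with 1 as pseudocount.

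Exo70, which binds the phospholipids of the plasma membrane, was the only subunit called higher at T2. It had signals at T0 of 73.3, 64.0 and 70.6, at T1 of 17.5, 4.5 and 14.0, at T2 of 43.5, 54.9 and 43.8, at T3 of 81.9, 69.1 and 46.3, and at T4 of 62.7, 73.1 and 54.4. At T1 against T0 it fell by 2.06 ± 0.27 (SE) on the log2 scale, at least 3.15-fold, and at T2 against T1 the gene rose by 1.56 ± 0.27, at least 2.15-fold (adjusted p in limma 3.8e-05 and 0.0014). Its T1 arrays were all at background and its T2 arrays all above it. The call at T2 did not hold with 29.4 as pseudocount. Exo84 had signals at T0 of 61.5, 45.8 and 60.2, at T1 of 33.4, 8.6 and 5.5, at T2 of 9.9, 1.6 and 21.9, at T3 of 19.9, 2.4 and 15.2, and at T4 of 7.8, 23.1 and 24.1, and its log2 fold change at T1 was -1.63 ± 0.52 (SE; adjusted p in limma 0.026). This call on Exo84 did not hold without T0 array 2 or 4 or T1 array 2 or 3 (log2 fold changes of -1.58 to -1.30), after quantile normalization, with 1 as pseudocount, with 29.4 as pseudocount or with a replicate block. Sec10, a core subunit of the complex, had signals at T0 of 87.5, 57.4 and 81.7, at T1 of 14.5, 31.6 and 33.5, at T2 of 49.4, 34.5 and 37.2, at T3 of 12.0, 32.1 and 42.0, and at T4 of 41.4, 51.0 and 36.2 and a log2 fold change of -1.33 ± 0.34 (SE) at T1 (adjusted p in limma 0.0067). This call on Sec10 did not hold after quantile normalization or with 29.4 as pseudocount.

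Sec8 and Sec3 did not meet the call. Sec8 had signals at T0 of 251, 240.1 and 214, at T1 of 141, 127 and 157, at T2 of 225, 253 and 318, at T3 of 208, 291 and 255, and at T4 of 225, 154 and 198; its log2 fold changes were -0.70 ± 0.21 (SE) at T1 against T0 and 0.86 ± 0.21 at T2 against T1, with adjusted p in limma of 0.016 and 0.012, so it passed the p threshold and not the fold. All 3 T1 arrays were below all T0 arrays, and all T2 arrays above all T1 arrays. Sec3, which marks sites of exocytosis in yeast, had signals at T0 of 36.5, 35.3 and 35.6, at T1 of 32.6, 19.2 and 17.0, at T2 of 1.5, 17.7 and 14.8, at T3 of 10.1, 7.4 and 17.6, and at T4 of 22.6, 40.1 and 24.6, with a log2 fold change of -0.55 ± 0.36 (SE; adjusted p in limma 0.32) at T1. Its T0 arrays were close together and above background, while the arrays of T2 and T3 were all at or below it.

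**Figure D2:**
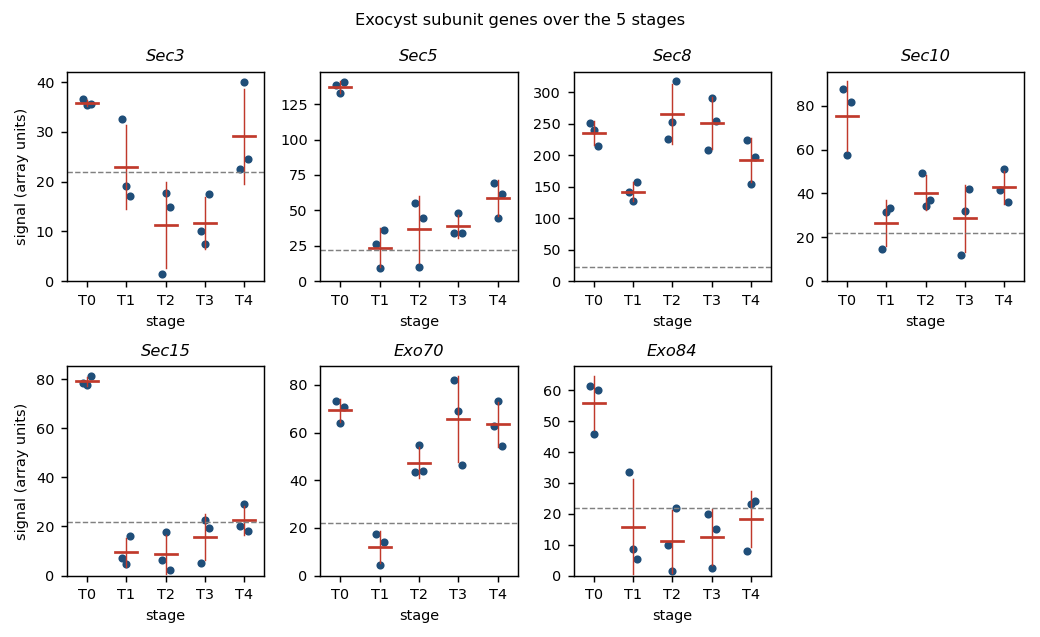
Signals (array units, linear axes that differ between panels) of the 7 measured exocyst subunits at the 5 stages. Points are arrays, horizontal bars the mean and vertical bars the SD of 3 arrays, and the dashed line is the background level of 21.96. In all 7 subunits the T1 arrays lie below the T0 arrays, and 5 subunits were called lower. Exo70, at background at T1, is above it on every array from T2 on.

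Rab GTPases of the endoplasmic reticulum and Golgi were represented by Rab2, Rab18 and Rab30, and each changed by the F test, as did 46.6% of all genes. Rab18, which acts at lipid droplets and the endoplasmic reticulum, showed the most negative log2 fold change of the set at T1. It had signals at T0 of 180.1, 239.6 and 226, at T1 of 16.9, 9.9 and 1.9, at T2 of 3.3, 13.1 and 3.2, at T3 of 16.9, 14.1 and 14.1, and at T4 of 55.9, 93.0 and 84.6. The log2 fold change at T1 against T0 was -3.82 ± 0.34 (SE; adjusted p in limma 1e-06), at least 9.73-fold lower, since every array at T1 was at background. Rab18 was at background on all arrays of T1, T2 and T3 and above it on all arrays of T4, when it was 1.91 ± 0.34 (SE) higher on the log2 scale than at T3 (adjusted p in limma 0.013), at least 3.46-fold. The call at T4 against T3 did not hold without T3 array 2 or 3 or T4 array 2 (log2 fold changes of 1.77 to 1.88), with 1 as pseudocount, with a replicate block or with only both stages in the fit. At T4 it was below T0, with a log2 fold change of -1.40 ± 0.34 (SE; adjusted p in limma 0.0055), with all arrays apart. The call at T4 against T0 did not hold with 1 as pseudocount.

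Rab2, which works between endoplasmic reticulum and Golgi and in the delivery of cargo to lysosomes, ran the other way. Rab2 had signals at T0 of 69.5, 85.9 and 70.1, at T1 of 156, 168 and 158, at T2 of 199, 213 and 236, at T3 of 217, 159.9 and 169, and at T4 of 147, 188 and 166. Every array of the 4 later stages was above every T0 array. The log2 fold changes were 1.03 ± 0.18 (SE) at T1 and 1.08 ± 0.18 at T4, each against T0, with adjusted p in limma of 0.00046 and 0.00033; it was the only gene of the set called higher at T4 against T0. The call at T1 did not hold without T0 array 2 or 4 (log2 fold changes of 0.98 to 0.99), when centred on ribosomal proteins or with 29.4 as pseudocount. The call at T4 did not hold without T4 array 2 (log2 fold change 0.99), when centred on the array median, when centred on ribosomal proteins or with 29.4 as pseudocount. Rab30, a Golgi Rab, had signals at T0 of 64.8, 92.9 and 64.0, at T1 of 40.1, 64.8 and 57.5, at T2 of 21.0, 28.4 and 19.6, at T3 of 29.6, 48.7 and 36.0, and at T4 of 10.0, 33.5 and 18.6. It fell by 1.01 ± 0.30 (SE) on the log2 scale at T2 against T1 and its log2 fold change at T4 against T0 was -1.61 ± 0.30, with adjusted p in limma of 0.039 and 0.00077. The call at T2 did not hold without T0 array 2, T1 array 2 or 3, T2 array 1 or 4, T3 array 3 or T4 array 3 (log2 fold changes of -1.01 to -0.88), with 1 as pseudocount, with 29.4 as pseudocount or with a replicate block.

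Of the endosomal Rab genes, Rab9, Rab14 and Rab35 were measured. Rab9, which in mammals returns receptors from late endosomes to the Golgi, had signals at T0 of 41.8, 48.1 and 29.1, at T1 of 5.4, 7.5 and 13.0, at T2 of 3.7, 8.9 and 10.3, at T3 of 9.0, 11.1 and 5.3, and at T4 of 5.1, 4.9 and 2.0. All T0 arrays were above background and all 12 later arrays at or below it. It was at least 1.77-fold lower at T1 and at least 1.77-fold lower at T4 than at T0, with log2 fold changes of -1.57 ± 0.26 and -2.05 ± 0.26 (SE) and adjusted p in limma of 0.0003 and 3e-05. The call at T1 did not hold with 29.4 as pseudocount (log2 fold change -0.86). Rab35, a Rab of recycling and actin, was highest at T1. Arrays gave signals at T0 of 255, 220.5 and 165, at T1 of 502, 348 and 436, at T2 of 214, 234 and 266, at T3 of 136, 118 and 142, and at T4 of 104, 51.0 and 63.5. At T1 its log2 fold change over T0 was 0.99 ± 0.25 (SE) with an adjusted p in limma of 0.0068, just under the fold required. At T4 it was lower than at T0, with a log2 fold change of -1.50 ± 0.25 (SE; adjusted p in limma 0.00034), with no array of T4 reaching one of T0. Rab14, which acts on endosomes and phagosomes, had signals at T0 of 356, 372 and 396, at T1 of 410.3, 429.5 and 405, at T2 of 372, 352 and 385, at T3 of 353, 406 and 379, and at T4 of 311, 265 and 326, and was called in no comparison. Its T1 arrays all lay above its T0 arrays, by a small margin, with a log2 fold change of 0.14 ± 0.16 (SE; adjusted p in limma 0.6).

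The 10 remaining Rab genes, of the plasma membrane, regulated secretion and other roles, divided at T1: Rab19, Rab23, Rab27 and Rab40 fell, Rab10 and Rab26 rose, and the other four were not called. Among all genes, 16.5% were called lower at T1 and 8.16% higher. Rab23, which shapes planar polarity of hairs in the fly and Hedgehog signalling in the mouse, had signals at T0 of 106, 88.5 and 95.3, at T1 of 6.2, 19.0 and 4.8, at T2 of 29.8, 7.5 and 4.2, at T3 of 38.3, 64.3 and 16.7, and at T4 of 55.2, 54.8 and 84.2. It was at least 4.39-fold lower at T1 than at T0, with a log2 fold change of -2.67 ± 0.46 (SE; adjusted p in limma 0.00037). All T1 arrays were at background, and all T4 arrays were above it again. Rab19 had signals at T0 of 123, 91.5 and 89.5, at T1 of 23.1, 21.6 and 25.6, at T2 of 67.6, 61.3 and 57.8, at T3 of 111, 99.1 and 97.6, and at T4 of 114, 133 and 94.8. It fell by 1.81 ± 0.19 (SE) at T1 against T0 and rose by 1.18 ± 0.19 at T2 against T1 on the log2 scale, with adjusted p in limma of 3.6e-06 and 0.00072. T1 was the only stage at which its arrays sat near background. The call at T2 did not hold when centred on the array median or with 29.4 as pseudocount.

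Rab27, a Rab of regulated secretion, averaged 111 ± 28.1 at T1 against 319 ± 37.5 at T0 (SD, n = 3 each), a log2 fold change of -1.49 ± 0.24 (SE; adjusted p in limma 0.00021). Rab40, which carries a SOCS box that recruits a ubiquitin ligase, averaged 100.1 ± 14.5 at T1 against 268 ± 78.1 at T0, with -1.32 ± 0.25 (SE; adjusted p in limma 0.00084). Neither gene was called in another comparison.

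Rab10 directs polarised secretion, in the fly that of basement membrane. It had signals at T0 of 388, 360.1 and 408, at T1 of 749, 969 and 1648, at T2 of 613, 698 and 492, at T3 of 329, 316 and 398, and at T4 of 453, 319.5 and 446. At T1 it was 1.45 ± 0.27 (SE) above T0 on the log2 scale (adjusted p in limma 0.00068), and the T1 arrays were widely spread. A second probe set of Rab10 averaged 139 ± 4.98 at T1 against 79.4 ± 12.8 at T0, a log2 fold change of 0.77 ± 0.28 (SE; adjusted p in limma 0.048) that missed the fold, so both probe sets had higher signals at T1 and only 1 was called. This call on Rab10 did not hold when centred on ribosomal proteins. Rab26, a Rab of secretory granules, had signals at T0 of 1.8, 4.4 and 4.0, at T1 of 18.6, 41.3 and 28.4, at T2 of 4.8, 28.8 and 6.3, at T3 of 34.9, 24.0 and 35.5, and at T4 of 9.4, 6.0 and 41.4. It was at least 1.27-fold higher at T1, with a log2 fold change of 1.74 ± 0.47 (SE; adjusted p in limma 0.01), and all T0 arrays were at background. This call on Rab26 did not hold when centred on ribosomal proteins or with 29.4 as pseudocount.

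Rab32 was not called at T1 and fell at T2. It serves lysosome-related organelles such as pigment granules, and had signals at T0 of 369.8, 397 and 360.0, at T1 of 374, 285 and 323, at T2 of 48.3, 43.6 and 17.2, at T3 of 42.5, 30.9 and 35.0, and at T4 of 40.3, 32.7 and 30.7. Arrays of T0 and T1 overlapped, with a log2 fold change of -0.20 ± 0.27 (SE; adjusted p in limma 0.69). At T2 against T1 it fell by 3.02 ± 0.27 (SE; adjusted p in limma 1.2e-05), and its log2 fold change at T4 against T0 was -3.20 ± 0.27 (SE; adjusted p in limma 5.8e-07). These were the most negative values of the set in both comparisons. Rab39, linked to endosomes and autophagy, had signals at T0 of 137, 193 and 199.7, at T1 of 81.8, 100 and 109, at T2 of 228, 249 and 249.7, at T3 of 285, 376 and 334, and at T4 of 284, 238 and 324. It rose by 1.27 ± 0.20 (SE; adjusted p in limma 0.00085) at T2 against T1; at T1 against T0 its log2 fold change was -0.81 ± 0.20, which missed the fold. The T1 arrays were the lowest of all stages. Rab3, the Rab of synaptic vesicles, was at or below background on all 15 arrays. Rab9Fa was at or below background on 13 of the 15 arrays and was called in no comparison. A further probe set is shared by Rab9Fa, Rab9D and Rab9Db, near-identical copies whose signals may not be separated. That probe set gave signals of 0.5 to 3.4, all below background.

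**Figure D3:**
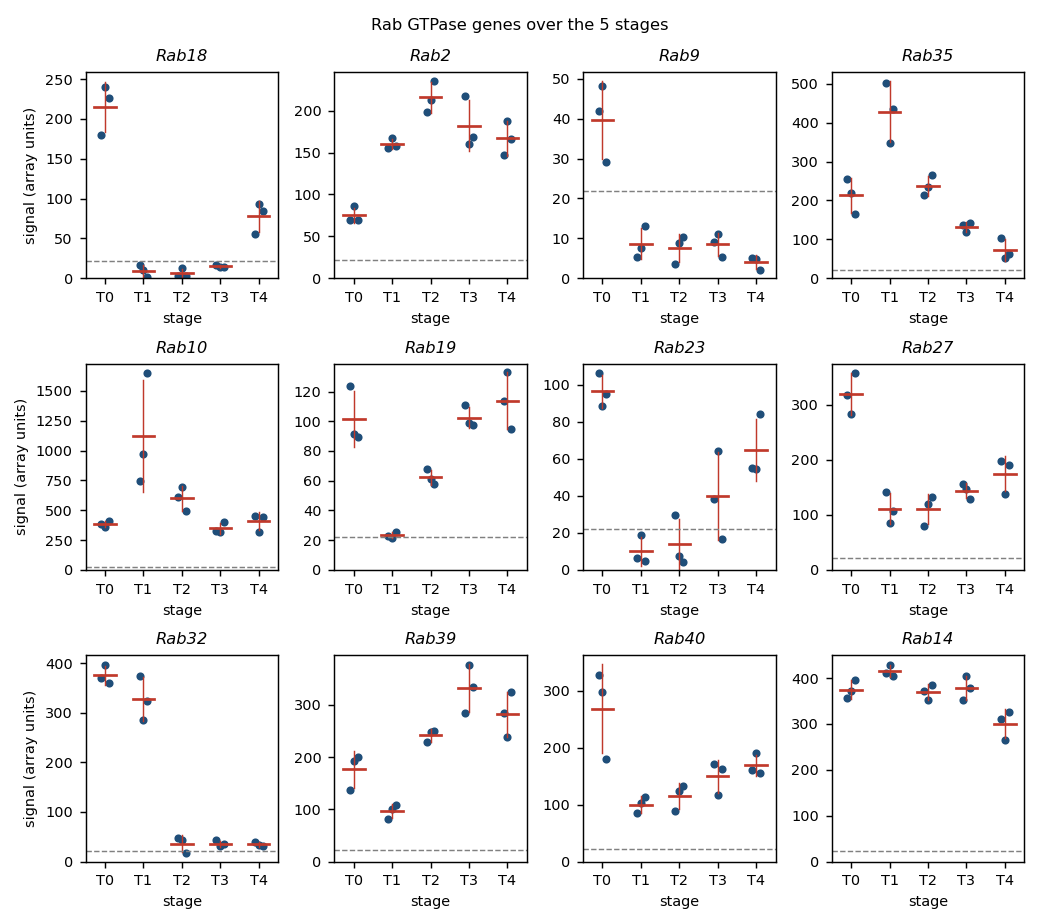
Signals (array units, linear axes that differ between panels) of 12 Rab genes at the 5 stages. Points are arrays, horizontal bars the mean and vertical bars the SD of 3 arrays, and the dashed line is the background level; Rab18, Rab9 and Rab23 lie at background at T1, Rab32 is near it from T2 on, and Rab2 is above its T0 arrays at every later stage.

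Among genes that regulate Rab3 or carry its name, Rab3-GAP, a subunit of a complex that acts on Rab3 and Rab18, had signals at T0 of 63.6, 49.3 and 55.8, at T1 of 106, 123 and 142, at T2 of 151, 121 and 163, at T3 of 132, 117 and 146, and at T4 of 104, 76.5 and 109.5. It rose by 1.04 ± 0.20 (SE) on the log2 scale at T1 against T0 (adjusted p in limma 0.001), with all T1 arrays above all T0 arrays. This call on Rab3-GAP did not hold without T0 array 3 or T1 array 3 (log2 fold changes of 0.94 to 0.96), when centred on ribosomal proteins or with 29.4 as pseudocount. Its partner subunit Rab3GAP1 averaged 89.9 ± 1.33 at T1 against 104 ± 11.9 at T0 (log2 fold change -0.19 ± 0.20, SE; adjusted p in limma 0.57), and its second probe set was called in no comparison either. Rab3-GEF, an activator of Rab3, averaged 32.7 ± 16.4 at T1 against 51.6 ± 18.7 at T0 and was not called.

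The Sec61 channel moves nascent proteins into the endoplasmic reticulum. Of its subunits and helper, none was called at T1, Sec63 fell at T2, and Sec61gamma and Sec63 were lower at T4 than at T0. Sec61alpha, the channel subunit, had signals at T0 of 1154, 1014 and 806, at T1 of 1094, 798 and 1001, at T2 of 1014, 1040.0 and 839, at T3 of 1216, 1139 and 1170.4, and at T4 of 1846, 1304 and 1459. Sec61beta, a small accessory subunit, had signals at T0 of 781, 788 and 1051, at T1 of 979, 859 and 877, at T2 of 1334, 1051 and 1311, at T3 of 1124, 1117 and 1258, and at T4 of 1357, 1719.9 and 1343. Neither was called in any comparison, and their log2 fold changes at T1 against T0 were -0.04 ± 0.20 and 0.06 ± 0.19 (SE). At T4 against T0 both passed the p threshold as higher and missed the fold. Sec61alpha averaged 1536 ± 279 at T4 against 991 ± 175 at T0 (SD). Sec61beta averaged 1473.5 ± 213 at T4 against 873 ± 154 at T0. The moderated F test found a change in Sec61beta (adjusted p 0.019) and not in Sec61alpha (adjusted p 0.056). Sec63, which helps the chaperone BiP to act at the channel, had signals at T0 of 233, 224 and 184, at T1 of 173, 94.2 and 172, at T2 of 65.1, 17.1 and 47.6, at T3 of 9.6, 22.0 and 60.1, and at T4 of 41.8, 65.0 and 60.0. It fell by 1.69 ± 0.47 (SE) at T2 against T1 on the log2 scale, and its log2 fold change at T4 against T0 was -1.83 ± 0.47 (adjusted p in limma 0.028 and 0.0076). All 6 arrays of T0 and T1 were above all 9 arrays of T2, T3 and T4. The call at T2 did not hold without T1 array 1 or 3 or T2 array 3 (log2 fold changes of -1.56 to -1.24), with 1 as pseudocount, with a replicate block or with only both stages in the fit. Sec61gamma, the remaining small subunit, averaged 256 ± 36.2 at T4 against 717 ± 99.8 at T0 (SD, n = 3 each), a log2 fold change of -1.46 ± 0.26 (SE; adjusted p in limma 0.00054). 

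COPII coats the vesicles that leave the endoplasmic reticulum, and 5 of its genes were measured. Sec13, of the outer coat and the nuclear pore, averaged 211 ± 24.3 at T1 against 577 ± 114 at T0, a log2 fold change of -1.41 ± 0.23 (SE; adjusted p in limma 0.00028). Its partner in the outer coat, Sec31, had signals at T0 of 402, 290.5 and 335, at T1 of 356, 291 and 386, at T2 of 222, 302 and 179.9, at T3 of 179.8, 156 and 252, and at T4 of 192, 304 and 247 and was called in no comparison; its log2 fold change at T1 was 0.01 ± 0.25 (SE), with overlapping arrays. Sec24AB, a cargo adaptor, averaged 53.7 ± 6.68 at T1 against 122 ± 22.7 at T0 (-1.07 ± 0.39, SE; adjusted p in limma 0.049). The moderated F test found no change in Sec24AB (adjusted p 0.11). This call on Sec24AB did not hold without T0 array 2, 3 or 4, T1 array 1, 2 or 3, T2 array 4, T3 array 1, 2 or 3 or T4 array 3 (log2 fold changes of -1.22 to -0.97), after quantile normalization, when centred on the array median, with 1 as pseudocount, with 29.4 as pseudocount or with a replicate block. The other adaptor gene, Sec24CD, was not called, with -0.38 ± 0.30 at T1.

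Sec16, the scaffold of endoplasmic reticulum exit sites, had signals at T0 of 134, 90.4 and 118, at T1 of 132, 102 and 119, at T2 of 48.9, 53.0 and 33.1, at T3 of 61.7, 52.1 and 31.5, and at T4 of 70.8, 25.9 and 32.4. Its signals at T1 and T0 overlapped, and at T2 against T1 it fell by 1.27 ± 0.32 (SE; adjusted p in limma 0.016). Its log2 fold change at T4 against T0 was -1.36 ± 0.32 (adjusted p in limma 0.0041). A second, dimmer Sec16 probe set averaged 30.1 ± 23.9 at T2 against 41.9 ± 2.60 at T1 (SD, n = 3 each), a log2 fold change of -0.65 ± 0.53 (SE), and was not called. The call at T2 did not hold without T1 array 1 or T2 array 4 (log2 fold changes of -1.19 to -1.09) or with 29.4 as pseudocount. 

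Both SNAREs of the set act between Golgi and endoplasmic reticulum. Sec22 had signals at T0 of 161, 133 and 156, at T1 of 206, 209 and 230.2, at T2 of 75.2, 84.8 and 87.1, at T3 of 88.5, 96.4 and 136, and at T4 of 95.1, 44.6 and 133. It was highest at T1 and fell by 1.31 ± 0.29 (SE) on the log2 scale at T2 against T1 (adjusted p in limma 0.0083), with all T1 arrays above all others. Sec20, part of the retrograde fusion complex, averaged 57.0 ± 11.4 at T1 against 132 ± 20.7 at T0 (-1.11 ± 0.23, SE; adjusted p in limma 0.0015). This call on Sec20 did not hold without T0 array 4 or T1 array 1 (log2 fold change -1.0), after quantile normalization, when centred on the array median or with 29.4 as pseudocount.

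Sec71, an exchange factor that activates Arf at the Golgi, dipped at T1. It had signals at T0 of 151, 142 and 159.8, at T1 of 42.2, 61.2 and 77.6, at T2 of 179, 145 and 105, at T3 of 109.7, 192 and 158, and at T4 of 182, 143 and 213. It fell by 1.26 ± 0.27 (SE) at T1 against T0 and rose by 1.16 ± 0.27 at T2 against T1 on the log2 scale, with adjusted p in limma of 0.0021 and 0.01. All T1 arrays were below all other arrays. The call at T1 did not hold after quantile normalization. The call at T2 did not hold without T1 array 1 or T2 array 1 (log2 fold changes of 0.95 to 0.99), when centred on the array median, with 29.4 as pseudocount or with only both stages in the fit.

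The Vps13 proteins carry lipids between membranes at contact sites. All 3 fell at T1 against T0 and all 3 rose at T2 against T1, where 16.5% and 5.8% of all genes did so. Vps13B had signals at T0 of 77.5, 50.9 and 65.5, at T1 of 17.2, 10.0 and 19.6, at T2 of 72.8, 44.0 and 137, at T3 of 81.6, 108 and 124, and at T4 of 93.1, 63.2 and 69.7. It was at least 2.90-fold lower at T1 than at T0 and at least 3.46-fold higher at T2 than at T1, with log2 fold changes of -1.66 ± 0.33 and 1.90 ± 0.33 (SE) and adjusted p in limma of 0.0013 and 0.0015. Its T1 arrays were the only ones at background. Vps13 had signals at T0 of 76.0, 57.4 and 43.5, at T1 of 21.7, 20.5 and 29.5, at T2 of 59.7, 74.9 and 57.5, at T3 of 112, 97.1 and 78.2, and at T4 of 142, 44.4 and 150.3, with -1.07 ± 0.36 (SE) at T1 against T0 and 1.20 ± 0.36 at T2 against T1 (adjusted p in limma 0.033 and 0.04). The call for Vps13 at T1 did not hold without T0 array 2 or 3 or T1 array 1 or 2 (log2 fold changes of -1.07 to -0.89), after quantile normalization, when centred on the array median or with 29.4 as pseudocount. The call for Vps13 at T2 did not hold without T0 array 3, T1 array 1, 2 or 3, T2 array 1, 3 or 4 or T3 array 2 (log2 fold changes of 1.09 to 1.32), after quantile normalization, when centred on the array median, when centred on ribosomal proteins, with 29.4 as pseudocount or with a replicate block. Vps13D, needed for mitochondrial clearance in the fly gut, had signals at T0 of 82.3, 69.9 and 84.4, at T1 of 32.5, 42.8 and 29.5, at T2 of 68.1, 70.0 and 129, at T3 of 64.6, 126 and 92.0, and at T4 of 79.4, 74.6 and 93.3, with -1.04 ± 0.27 and 1.15 ± 0.27 (SE; adjusted p in limma 0.0078 and 0.011). The call for Vps13D at T1 did not hold without T0 array 4 or T1 array 3 (log2 fold changes of -0.99 to -0.94), after quantile normalization, when centred on the array median, with 29.4 as pseudocount or with a replicate block. The call for Vps13D at T2 did not hold without T2 array 4 (log2 fold change 0.87), when centred on the array median, with 29.4 as pseudocount or with only both stages in the fit. A second Vps13D probe set, with stage means between 6.8 and 19.7, all below background, was not called.

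ESCRT complexes sort ubiquitinated cargo into multivesicular bodies. Of 9 measured genes, Vps20, Vps2 and Vps36 fell at T1, none rose, and the median log2 fold change was -0.79. Among all genes, 16.5% were called lower at T1 and 8.16% higher. Vps20, a core subunit of ESCRT-III, had signals at T0 of 188, 254 and 279.5, at T1 of 54.7, 47.6 and 35.5, at T2 of 112, 62.5 and 85.6, at T3 of 112, 125 and 108, and at T4 of 148, 172 and 148, with a log2 fold change of -2.22 ± 0.23 (SE) at T1 against T0 (adjusted p in limma 4.3e-06). Vps2, of the same complex, had signals at T0 of 62.5, 98.2 and 68.2, at T1 of 13.2, 2.2 and 27.8, at T2 of 23.1, 40.7 and 42.9, at T3 of 69.3, 32.7 and 48.7, and at T4 of 61.1, 17.2 and 44.8, with -2.12 ± 0.46 (SE; adjusted p in limma 0.0025). In both genes every T0 array was above every T1 array. Vps24, a further ESCRT-III subunit, was called only at T4 against T0, where it averaged 95.2 ± 31.0 at T4 against 214 ± 29.2 at T0 (-1.15 ± 0.27, SE; adjusted p in limma 0.0044). This call on Vps24 did not hold without T4 array 2 (log2 fold change -0.88) or with 29.4 as pseudocount. In ESCRT-II, Vps36 averaged 24.2 ± 3.96 at T1 against 57.5 ± 20.7 at T0 (-1.01 ± 0.27, SE; adjusted p in limma 0.01). This call on Vps36 did not hold without T0 array 4 or T1 array 1 or 2 (log2 fold changes of -0.98 to -0.76), after quantile normalization, when centred on the array median, with 29.4 as pseudocount or with a replicate block. Its partner Vps25 had signals at T0 of 338, 408 and 456, at T1 of 422, 438 and 462, at T2 of 387, 424 and 406, at T3 of 475, 501 and 481, and at T4 of 417, 387 and 453 and was called in no comparison (0.14 ± 0.17 at T1, with overlapping arrays). Vps28 and Vps37B of ESCRT-I, the ATPase Vps4 and the accessory protein Vps60 were not called in any comparison, with log2 fold changes at T1 of -0.85, 0.60, -0.09 and -0.79 in that order. Of these genes, only Vps28 changed by the moderated F test (adjusted p 0.00072). It averaged 276 ± 43.5 at T0, 149 ± 16.7 at T1 and 378.5 ± 62.8 at T4 (SD). Of the 9 ESCRT genes, 5 passed the p threshold as lower at T1, 3 of them called, and 1 as higher.

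Retromer returns receptors from endosomes, and its 3 core subunits Vps26, Vps29 and Vps35 changed by the F test, as did 46.6% of all genes. Vps35 had signals at T0 of 139.7, 169 and 117, at T1 of 280.5, 318 and 344, at T2 of 267, 344 and 247, at T3 of 218, 217 and 241, and at T4 of 124, 143 and 172. It rose by 1.12 ± 0.20 (SE) on the log2 scale at T1 against T0 (adjusted p in limma 0.00058), and its T4 arrays again overlapped those of T0. This call on Vps35 did not hold without T0 array 4 (log2 fold change 0.99) or when centred on ribosomal proteins. Vps26 had signals at T0 of 215, 194 and 222, at T1 of 314, 316 and 314, at T2 of 73.8, 98.8 and 138, at T3 of 45.3, 92.8 and 70.5, and at T4 of 100.2, 143 and 99.4; it fell by 1.58 ± 0.26 (SE; adjusted p in limma 0.0011) at T2 against T1. Its T1 arrays were the highest of all stages. Vps29 had signals at T0 of 362, 367 and 427, at T1 of 459, 463 and 517, at T2 of 443, 439 and 393, at T3 of 348, 349 and 369.6, and at T4 of 208, 264 and 290.5 and was called in no comparison, with 0.31 ± 0.17 (SE) at T1 and -0.59 ± 0.17 at T4, each against T0.

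HOPS and CORVET tether endosomes and lysosomes, together with proteins of the Sec1/Munc18 family. Vps39, a HOPS subunit, was called only at T4 against T0. Arrays gave signals at T0 of 61.3, 127 and 65.0, at T1 of 148, 134 and 118, at T2 of 100, 105 and 30.4, at T3 of 16.4, 15.5 and 47.7, and at T4 of 1.9, 6.5 and 9.5. At T4 all arrays were at background and it was at least 3.62-fold lower than at T0, with a log2 fold change of -2.76 ± 0.45 (SE; adjusted p in limma 0.00025). Vps16A, of the shared core, averaged 29.1 ± 6.90 at T1 against 92.9 ± 23.8 at T0 (-1.45 ± 0.25, SE; adjusted p in limma 0.00039). This call on Vps16A did not hold after quantile normalization. Vps16B, which pairs with Vps33B, averaged 13.2 ± 5.28 at T1 against 64.0 ± 17.0 at T0, at least 2.85-fold lower (-1.80 ± 0.31, SE; adjusted p in limma 0.00042). Vps33B was called only at T4 against T0, averaging 35.2 ± 24.2 at T4 against 76.3 ± 4.28 at T0 (-1.16 ± 0.39, SE; adjusted p in limma 0.034). The moderated F test found no change in Vps33B (adjusted p 0.19). This call on Vps33B did not hold without T0 array 2, 3 or 4 or T4 array 1 or 2 (log2 fold changes of -1.25 to -0.65), after quantile normalization, with 29.4 as pseudocount, with a replicate block or with only both stages in the fit. Vps8, a CORVET subunit, and Vps45 were not called, with 0.25 ± 0.28 and -1.42 ± 0.56 (SE) at T1.

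GARP and EARP tether vesicles that come from endosomes. Vps50, the subunit particular to EARP, averaged 18.0 ± 7.77 at T1 against 65.6 ± 16.5 at T0, a log2 fold change of -1.55 ± 0.25 (SE; adjusted p in limma 0.00025). Vps51, common to both complexes, had signals at T0 of 134, 108 and 122, at T1 of 173, 143 and 192, at T2 of 106, 67.0 and 66.3, at T3 of 108, 116 and 95.1, and at T4 of 102, 69.6 and 76.2. It fell by 1.04 ± 0.22 (SE; adjusted p in limma 0.0057) at T2 against T1, with all T1 arrays above all T2 arrays. This call on Vps51 did not hold without T1 array 3 or T2 array 3 or 4 (log2 fold changes of -0.95 to -0.93), after quantile normalization or with 29.4 as pseudocount. Vps52 and Vps53 were not called, with 0.59 ± 0.21 and -0.23 ± 0.26 (SE) at T1. Vps15, the partner of the lipid kinase Vps34, was not called; its log2 fold change at T2 against T1 was 0.78 ± 0.21 (SE; adjusted p in limma 0.021), under the fold required.

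**Figure D4:**
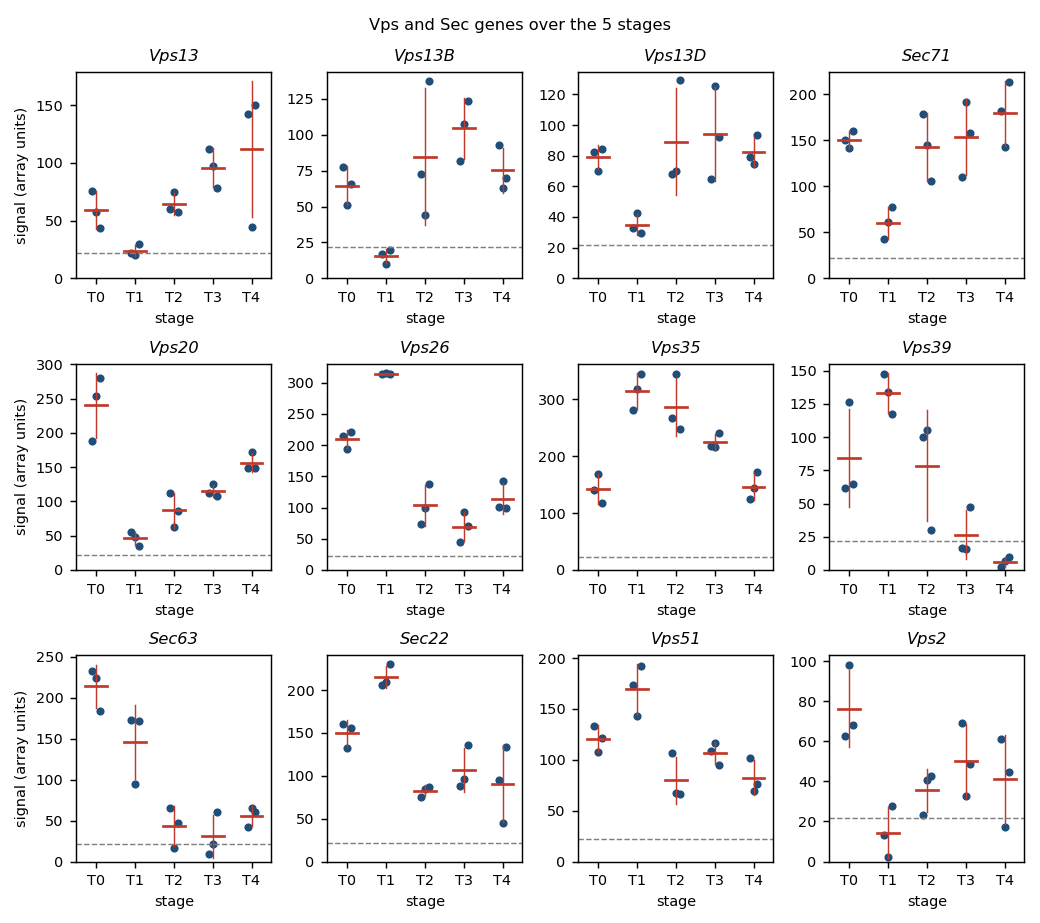
Signals (array units, linear axes that differ between panels) of 12 Vps and Sec genes at the 5 stages. Points are arrays, horizontal bars the mean and vertical bars the SD of 3 arrays, and the dashed line is the background level; the 3 Vps13 genes and Sec71 are lowest at T1, Vps26, Sec22 and Vps51 are highest at T1, and Vps39 is at background at T4.

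**Figure D5:**
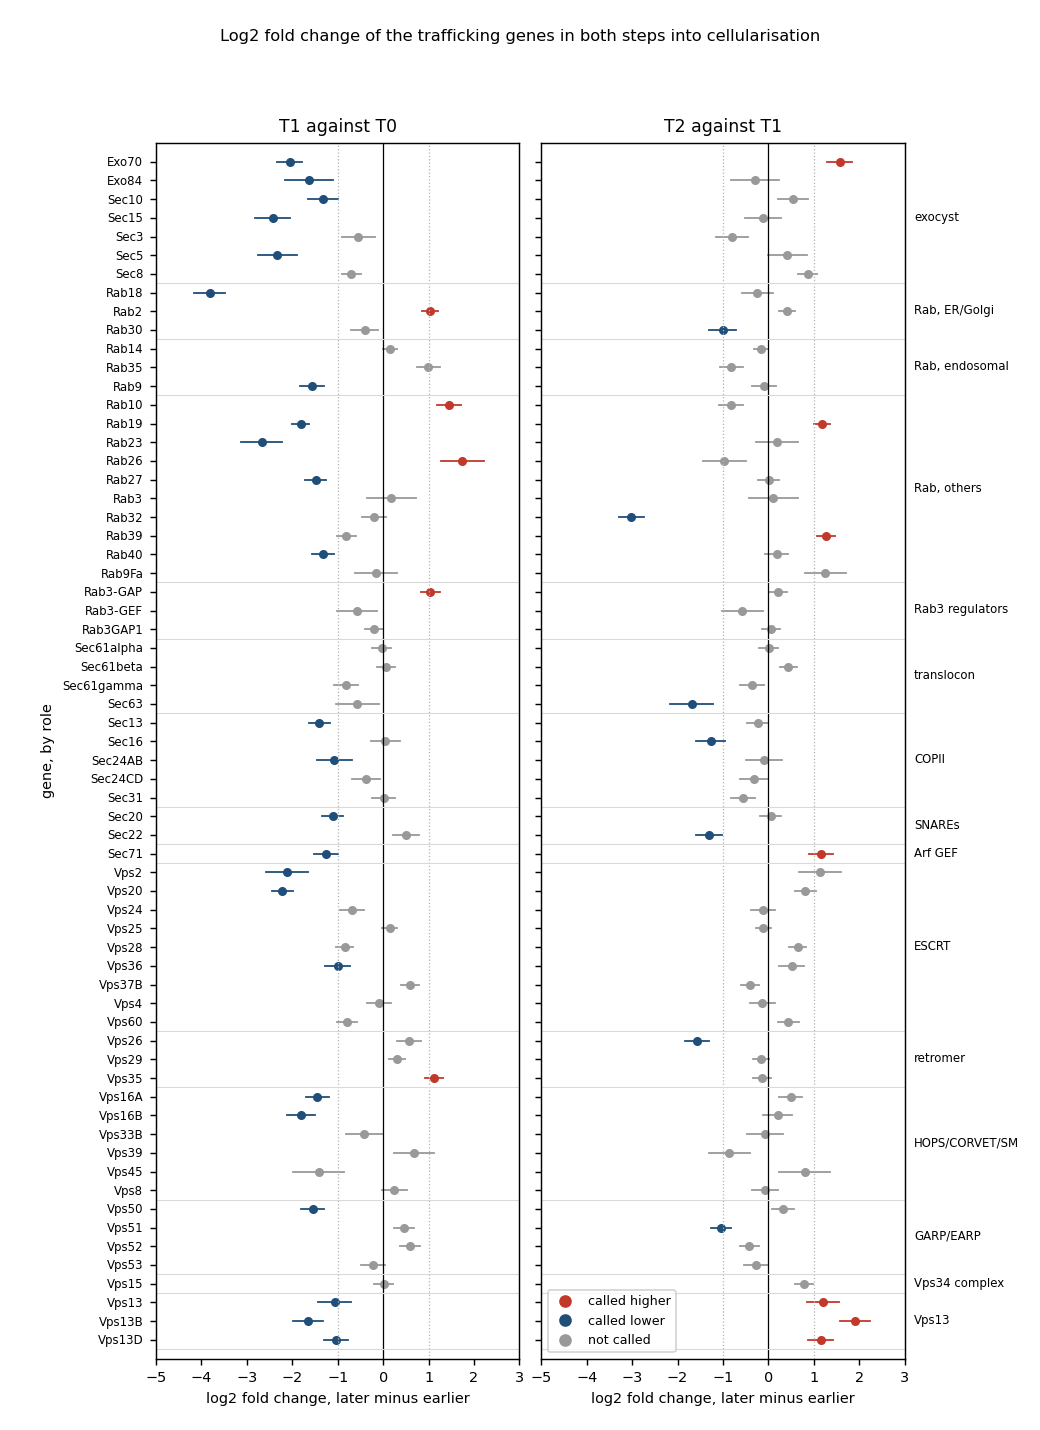
Log2 fold changes of the 64 genes with their standard errors, at T1 against T0 on the left and T2 against T1 on the right, grouped by role. Red points were called higher (5 and 7), blue points called lower (24 and 7) and grey points not called, and dotted lines mark a log2 fold change of 1 in size; the comparisons share the T1 arrays.

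Other genes of the same pathways, whose symbols fall outside the rule, were read from 6 lists with 84 measured genes of 102 listed. At T1 against T0, 27 fell (32.1%) and 1 rose (1.2%), where 16.5% of all genes were called lower and 8.16% higher. The F test found a change in 63 (75.0%), against 46.6% of all genes. At T2 against T1, 6 rose (7.1%) and 14 fell (16.7%), where 5.8% of all genes were called higher and 4.69% lower. At T4 against T0, 5 were higher (6.0%) and 22 lower (26.2%), where the shares of all genes were 11.8% and 13.3%. Between T3 and T2 only fws, a Golgi tether of the COG complex, was called, as lower (-1.10 ± 0.23, SE; adjusted p in limma 0.025). This call on fws did not hold without T2 array 1 or 4 or T3 array 1, 2 or 3 (log2 fold changes of -1.17 to -1.03), when centred on ribosomal proteins, with 1 as pseudocount, with a replicate block or with only both stages in the fit. Between T4 and T3 only Golgin245 was called, as higher, with both stage means below background (16.3 ± 2.02 at T4 against 2.93 ± 0.603 at T3). This call on Golgin245 did not hold with 29.4 as pseudocount or with only both stages in the fit. The falls at T1 comprised 5 of 16 SNAREs and their factors, 6 of 16 Rab regulators and effectors, 5 of 15 genes of endocytosis and Arf, 4 of 9 of COPII entry and TRAPP, 3 of 15 ESCRT, HOPS and retromer genes of other symbols, and 4 of 13 tethers and golgins. The lowest of these shares, 20.0% for the ESCRT, HOPS and retromer genes, was near the 16.5% of all genes.

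Gdi, the carrier that extracts Rab GTPases from membranes, averaged 60.8 ± 11.7 at T1 against 1107 ± 119 at T0 (SD, n = 3 each), with a log2 fold change of -4.04 ± 0.20 (SE; adjusted p in limma 3.5e-09). AP-2alpha, a subunit of the clathrin adaptor at the plasma membrane, averaged 29.5 ± 5.87 at T1 against 590.1 ± 24.8 at T0 (-4.03 ± 0.24, SE). Rbpn-5, an effector of Rab5, averaged 22.9 ± 3.93 at T1 against 379 ± 21.6 at T0 (-3.68 ± 0.29, SE). These values and that of Evi5, an effector of Rab11, which was at least 3.16-fold lower at T1, were the 4 most negative among the listed genes. The 1 gene that rose at T1 was lt, the fly Vps41 of HOPS, with 165 ± 40.1 at T1 against 67.4 ± 15.5 at T0 (1.20 ± 0.30, SE; adjusted p in limma 0.0063). This call on lt did not hold when centred on ribosomal proteins or with 29.4 as pseudocount.

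At T2 against T1 the most negative were BicD, an adaptor of dynein that Rab6 recruits, at least 5.05-fold lower; AP-1gamma, with 98.1 ± 28.6 at T2 against 480.2 ± 105 at T1; AP-1sigma (-2.15 ± 0.23, SE); and the SNARE Vamp7, with 112 ± 27.0 at T2 against 469.8 ± 30.7 at T1. AP-1gamma and AP-1sigma both belong to the clathrin adaptor of the Golgi and endosomes. The most positive were Golgin104, at least 2.04-fold higher, AP-2mu, with 164 ± 7.05 at T2 against 43.5 ± 4.07 at T1, gammaSnap1 (1.58 ± 0.33, SE) and the COG subunit Cog6 (1.37 ± 0.28, SE). AP-2mu belongs to the same complex as AP-2alpha, which was also higher at T2 (1.31 ± 0.24, SE). With 29.4 as pseudocount the calls at T2 on Golgin104, gammaSnap1 and AP-2alpha did not hold, nor did that on gammaSnap1 with only both stages in the fit. The Rab11 effector nuf fell by 1.44 ± 0.39 (SE; adjusted p in limma 0.023). This call on nuf did not hold without T1 array 1, 2 or 3 or T2 array 1 or 4 (log2 fold changes of -1.49 to -1.25) or with a replicate block.

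At T4 against T0, BicD (-3.70), Evi5 (-2.88), Snx6 (-2.49) and AP-1gamma (-2.42) had the most negative log2 fold changes. Those most positive were lap (1.35), Ccz1 (1.20), Chc (1.14) and lsn (1.13), all called; Chc is the clathrin heavy chain and lsn the fly Vps22 of ESCRT-II. TRAM, a translocon protein, was the remaining gene called higher (1.04 ± 0.28, SE). This call on TRAM did not hold without T0 array 3 or T4 array 2 (log2 fold changes of 0.67 to 0.92), when centred on the array median, when centred on ribosomal proteins, with 29.4 as pseudocount or with only both stages in the fit. This call on Ccz1 did not hold without T4 array 3 (log2 fold change 0.97), when centred on the array median, when centred on ribosomal proteins or with 29.4 as pseudocount. This call on lsn did not hold when centred on the array median, when centred on ribosomal proteins or with 29.4 as pseudocount. This call on lap did not hold when centred on ribosomal proteins or with 29.4 as pseudocount. The log2 fold change of lap was 2.30 with 1 as pseudocount and 0.62 with 29.4, so its size depends on the pseudocount. This call on Chc did not hold when centred on the array median or when centred on ribosomal proteins.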

How the data were processed

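The deposited table holds 14010 probe sets on 15 arrays as MAS5 intensity signals that the authors scaled to a common trimmed mean, per the submitters' processing notes and the values; the MAS5 version is not given in the sources used here. After 44 control probe sets were left out, 13966 were tested. Symbols came from the platform annotation, updated through the RefSeq gene table (Release 6); 12443 probe sets had 1 symbol, standing for 10844 genes. Members, lists and tests were chosen with earlier results of these data known.

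Intensity signals as deposited were converted to log2(signal + 7.3), the constant being the 25th percentile of an array's signals (median of arrays), and fitted with limma 3.58.1 (R 4.3.3), 1 mean per stage over all 15 arrays, with Benjamini-Hochberg adjustment. Code was tested on simulated data. Folds given as "at least" set a stage at background on all arrays to the background level. Array values are given for up to 6 called genes per comparison and direction by size of the log2 fold change, all exocyst subunits, some further called genes, and the 6 uncalled genes of highest mean; companion genes are named up to 4 per direction, plus nuf, AP-2alpha at T2 and TRAM. Alternatives covered scaling, pseudocount, dim probe sets, fold minimum, the replicate number as a block, both stages alone, and each array left out.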

Additional observations from a re-analysis of the deposited data

How the results depend on the processing

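Of 57 calls on the trafficking genes, 27 held under every alternative and none changed direction under any; 44 of 77 calls on the companion genes held. The counts moved most with the scaling and the pseudocount. Shares of all genes called were not computed under the alternatives. At T1 against T0, 37 genes were lower and 0 higher with ribosomal centring, and 2 were higher with a pseudocount of 29.4. At T2 against T1, 3 were higher with array-median centring, 2 with a pseudocount of 29.4 and 11 with no fold minimum; 4 were lower with a pseudocount of 29.4. At T4 against T3, 0 were higher with a pseudocount of 1, with the replicate block and with both stages fitted alone. At T4 against T0, 0 were higher with array-median centring, ribosomal centring or a pseudocount of 29.4, and 5 with no fold minimum; 20 were lower with array-median centring and 32 with ribosomal centring. The cause was not tested.

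With each array left out in turn, 3 to 6 were higher and 19 to 25 lower at T1 against T0 (3 without T0 replicate 4); 5 to 8 higher and 4 to 7 lower at T2 against T1 (4 without T1 replicate 3 or T2 replicate 4); 0 higher and 0 to 1 lower at T3 against T2 (Rab9Fa without T2 replicate 3, Vps39 without T2 replicate 4); 0 to 1 higher (0 without T3 replicate 2, T3 replicate 3 or T4 replicate 2) and 0 lower at T4 against T3; 1 to 2 higher (2 without T4 replicate 2) and 11 to 14 lower at T4 against T0; and 42 to 51 changed by the F test. Same-numbered arrays did not deviate together (r between -0.036 and 0.067). Arrays of different numbers were not compared, so pairing by number was neither shown nor excluded. With the replicate block 5 were higher and 20 lower at T1 against T0, 6 and 5 at T2 against T1, 1 and 12 at T4 against T0, and 42 changed by the F test. Genes at background, 39.0% to 49.7% of each array, carry only bounds.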
